A study of Mus musculus with 18 samples.

Results

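Loss of Acly was examined in natural killer (NK) cells primed with interleukin-15 (IL-15), by RNA sequencing of 6 libraries out of the 18 in the series. The knock-out group (3 libraries) came from Acly fl/fl mice that also carried Rosa YFP/YFP and the inducible Cre Ncr1 CRE-ERT2. The wild-type group (3 libraries) came from mice with the same Rosa YFP/YFP reporter and Ncr1 CRE-ERT2 driver but no floxed Acly. Mice of both genotypes had a tamoxifen diet for 48 hours, and YFP+ NK cells were sorted from the spleen 5 days after its withdrawal. The cells were then cultured for 72 hours with 100 ng/ml of IL-15, without later stimulation. The Ncr1 driver limits recombination to cells that express Ncr1, which encodes the activating receptor NKp46, and the reporter marks cells in which Cre was active, so wild-type cells also met active Cre and tamoxifen. Whether replicates are from separate animals is not stated in the labels. The other 12 libraries, 3 per genotype each of fresh cells and of primed cells stimulated for 6 hours with plate-bound NKG2D reagent at 20 ug/ml, serve to test whether a genotype difference depends on the condition. They also enter the scaling of CPM values, an alternative fit of all 18 libraries and a comparison of replicate numbers.

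ATP-citrate lyase, the product of Acly, splits citrate in the cytosol into acetyl-CoA and oxaloacetate. That acetyl-CoA feeds the synthesis of cholesterol and fatty acids and the acetylation of histones and other proteins. IL-15 is a survival and growth cytokine of NK cells that signals through JAK kinases and STAT5, and culture in it turns small resting NK cells into dividing blasts with high glycolysis and large stores of granzymes and perforin. The comparison asks how that primed state differs in cells whose Acly was targeted before culture.

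Acly transcripts were at 41.3, 38.1 and 48.9 CPM (counts per gene scaled to library size, with trimmed-mean factors) in the knock-out libraries, against 227, 279 and 262 CPM in the wild-type libraries. Every knock-out library lay far below every wild-type library. The log2 fold change, knock-out over wild type, was -2.56 (SE 0.131, edgeR quasi-likelihood adjusted p = 0.00119). The gene is annotated at chr11:100476353-100528000 on the minus strand of mm10. Counts are per gene, so the floxed part itself was not measured.

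The 6 libraries held 14772300 to 34111238 counted reads. The 12 NK-cell markers summed to between 17900 and 22900 CPM in knock-out libraries and between 20600 and 25000 CPM in wild-type libraries. Of 12 B-cell markers 5 had no read in any of the 6, and of 16 monocyte, macrophage and neutrophil markers 8 had none, Lyz2 among them. Other markers of the last list were read, with sums of 109 to 141 CPM in knock-out and 128 to 166 CPM in wild-type libraries. The 13 erythroid and platelet markers summed to 1740 to 2110 and 1930 to 2410 CPM, though 7 had no read and only 1 passed the expression filter. A pair of libraries stood apart. Knock-out replicate 1 had the lowest total and 14695 genes with a read, where the other 5 had at least 17877. Wild-type replicate 3, the deepest, read 106 of 7868 well-expressed genes at 4-fold or more above both other wild-type libraries and 0 genes at 4-fold or more below both. In most of these genes the knock-out libraries were high too, with 98, 84 and 58 of the 106 at least 2-fold above wild-type replicates 1 and 2 in knock-out replicates 1, 2 and 3. H2-D1, a class I histocompatibility gene, read 4790, 4960 and 2830 CPM in knock-out cells and 452, 444 and 4340 CPM in wild-type cells, and the ferritin gene Fth1 1777, 2148 and 1469 CPM against 96.4, 79.8 and 1234 CPM. Neither passed the genotype test (adjusted p = 0.391 and 0.261). The median transcript GC content of 102 such genes with an ordinary name was 55.6% and their median transcript length 942 bases, against 49.8% and 1178 bases over the expressed genes, and the part of either in the difference between libraries was not tested.

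The genotype difference in primed cells was broad and ran in both directions. Of 13022 genes tested, 1128 (8.66%) differed at an adjusted p of at most 0.05, with 552 (4.24%) higher and 576 (4.42%) lower in knock-out cells. Among them 211 rose and 215 fell by 2-fold or more, and 85 rose and 45 fell by 4-fold or more. The median log2 fold change over all tested genes was 0.006. Knock-out and wild-type libraries did not overlap in CPM for 4457 of the 13022 genes (34.2%). Separate groups alone are thus common here, and this share stands beside every such statement below. Transcripts of genes called higher had a median length of 1540 bases and GC content of 49.4%, and those called lower 935 bases and 52.2%. Over 5 groups of expressed genes by length, the median log2 fold change went from -0.09 in the shortest to 0.09 in the longest. By GC content it went from 0.08 in the lowest group to -0.03 in the highest. The part of length or GC content in the genotype difference was not tested. Among the largest rises taken by the naming rule were Tubb3, Gzmm, Klf2, Cma1, Cx3cr1, Rap1gap2 and Nqo1, and the largest falls besides Acly were Wdfy1, Gzme, Gzmd, Prelid2, Slc16a3, Ankrd37 and Aldoc. The count depended on which libraries entered the fit. It was 208 without knock-out replicate 2, 494 without knock-out replicate 3, 308 without wild-type replicate 1, 274 with wild-type replicate 2 left out and 3428 without both libraries that stood apart. Counts within gene lists are given also for those left-out libraries that moved them by over 1.5 times. Of the 1128 genes, 1118 are listed in the authors' deposited table of this comparison, and 1116 of these were past an adjusted p of 0.05 there with the same direction. The authors' table called more genes at that threshold, 2444 higher and 1795 lower. Of named genes not called here, Gzmb (authors' adjusted p = 0.00134), Acss2 (0.0413), Eomes (0.0135) and Myc (0.0268) were past it there. Hif1a (0.181), Ifng (0.44) and Tbx21 (0.103) were not.

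**Figure D1:**
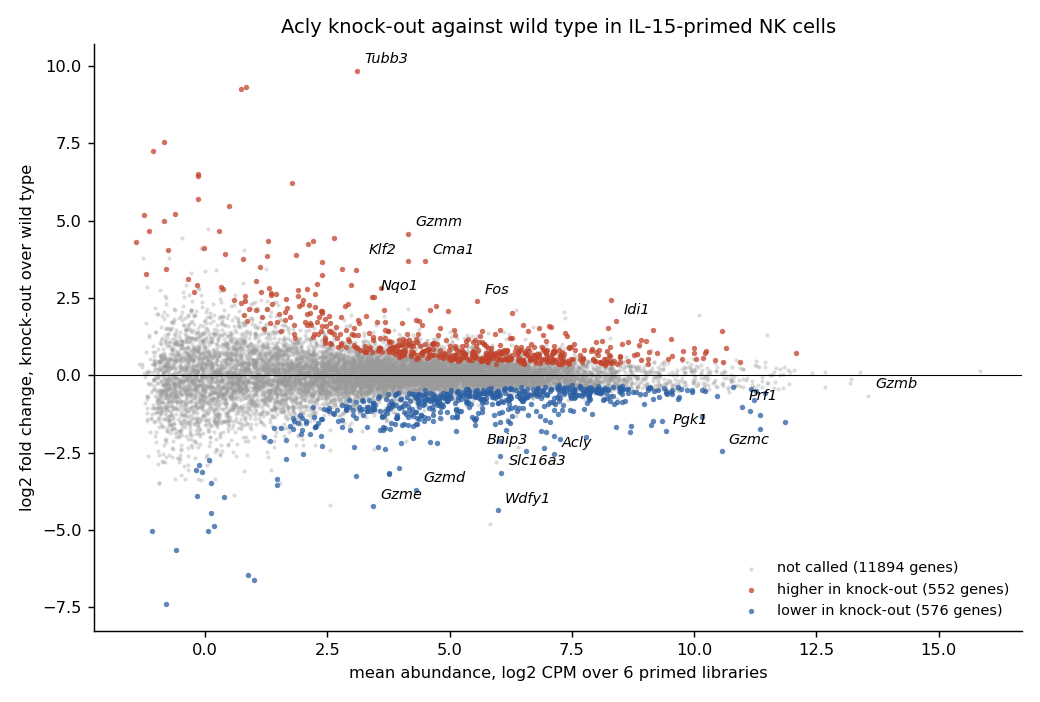
Each point is 1 of 13022 genes, with its mean abundance in log2 CPM on the horizontal axis and its log2 fold change, knock-out over wild type, on the vertical axis. The 552 genes called higher and the 576 called lower lie on both sides of 0, with Gzmm, Klf2 and Cma1 among the labelled rises and Wdfy1, Gzme and Gzmd among the labelled falls.

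Genes were also grouped in 33 lists of processes. Glycolysis had 0 of 25 tested members higher and 19 lower, with a median log2 fold change of -1.19. Cholesterol synthesis had 15 of 22 higher and 0 lower, with a median of 0.68. These were the lowest and the highest medians of the 33. Hypoxia-inducible genes (-0.78), checkpoint receptors (-0.51) and the TNF receptor family (-0.34) followed at the low end, and receptors of egress and homing (0.43) at the high end. The shares over all tested genes were 4.24% higher and 4.42% lower. Every list count below stands beside these shares, and counts such as 1 of 19 in the citric acid cycle in each direction lie near them.

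**Figure D2:**
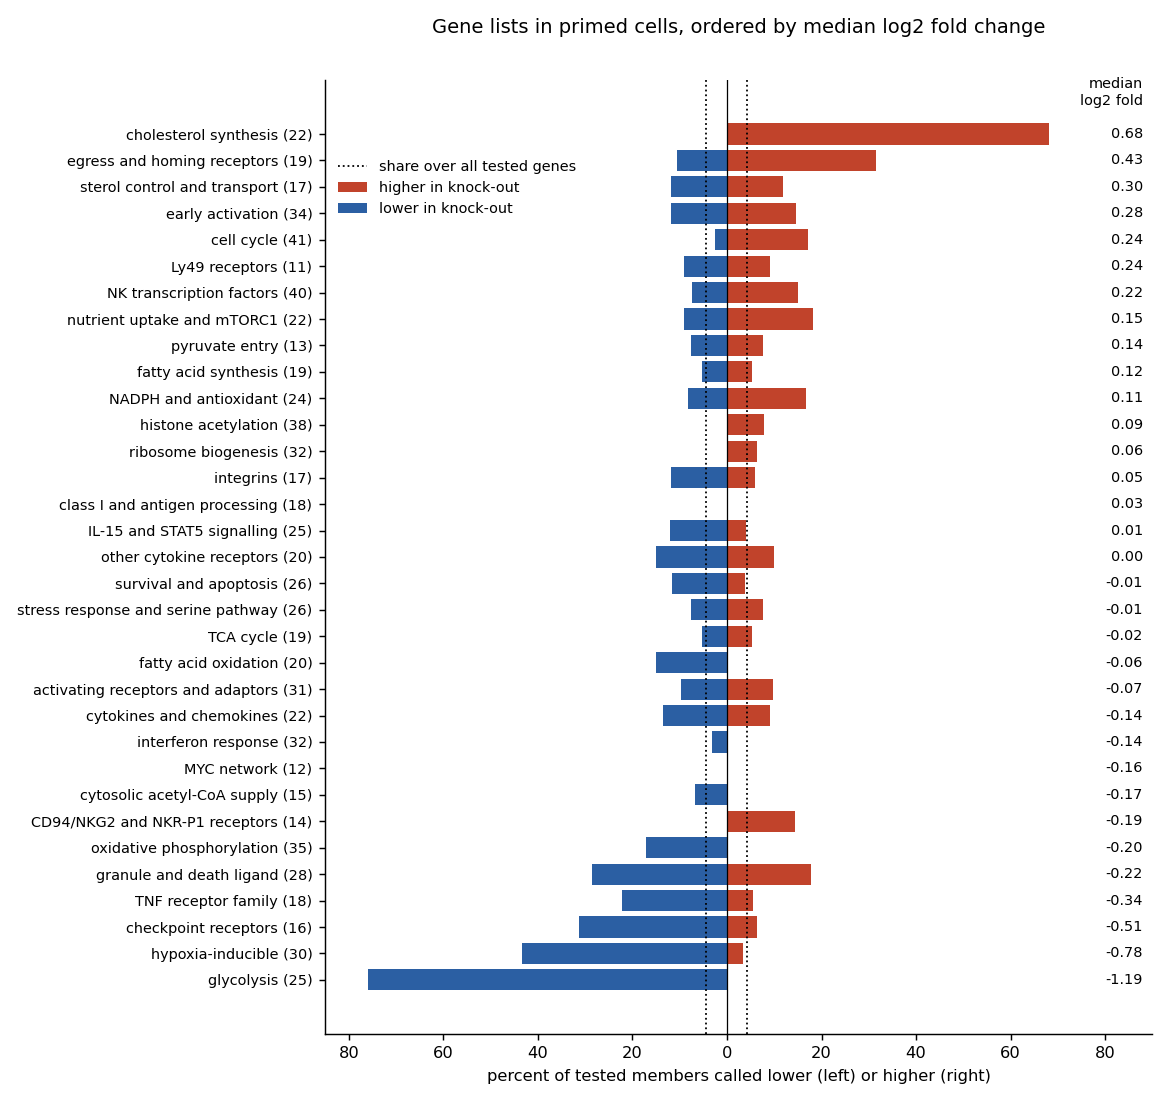
Bars give the percentage of each list's tested members called higher (right) or lower (left) in primed knock-out cells against wild type, and dotted lines the shares of 4.24% and 4.42% over all tested genes. Cholesterol synthesis reaches furthest to the right (15 of 22) and glycolysis furthest to the left (19 of 25).

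Glycolysis genes were lower in knock-out cells from glucose entry to lactate export. Glycolysis turns glucose into pyruvate, and activated lymphocytes release much of that pyruvate as lactate. Slc16a3, which encodes the lactate exporter MCT4, was at 11.5, 13.5 and 17.2 CPM in knock-out cells against 95.8, 135 and 150 CPM in wild-type cells (log2 fold change -3.15, SE 0.216, adjusted p = 0.00138). This was the largest fall of the list, with the groups far apart. The glucose transporter genes Slc2a1 (GLUT1; -1.31, adjusted p = 0.00954) and Slc2a3 (GLUT3; -0.91, adjusted p = 0.00618) fell too.

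The enzymes that follow fell as well. Hk2, the hexokinase that traps glucose in the cell, was at 19.8, 18 and 20.3 CPM in knock-out cells and 39.1, 48 and 47.6 CPM in wild-type cells (log2 fold change -1.19, SE 0.136, adjusted p = 0.00472). Aldoa, the aldolase that splits the sugar, was at 1140, 1030 and 1550 CPM against 3560, 4950 and 4220 CPM (log2 fold change -1.75, SE 0.184, adjusted p = 0.00386). Pgk1, phosphoglycerate kinase, the first step that yields ATP, was at 332, 278 and 339 CPM against 919, 1370 and 1110 CPM (log2 fold change -1.81, SE 0.166, adjusted p = 0.00257). In each of these, and in Slc16a3, the groups were separate and knock-out replicate 3 was the highest knock-out library. The falls on the log2 scale reached -2.61 in Aldoc, -1.63 in Tpi1, -1.62 in Eno3, -1.50 in Eno1, -1.48 in Gpi1, -1.47 in Gapdh and -1.27 in Pkm. The lactate dehydrogenase gene Ldha (-1.15), Pgam1 (-1.09), the phosphofructokinase genes Pfkm (-1.26), Pfkl (-1.16) and Pfkp (-0.85), and Hk1 (-0.54) make up the 19. Among the 6 members not called, the largest differences were 1.23 for Ldhb (adjusted p = 0.281) and -0.90 for Pfkfb3 (adjusted p = 0.0578). Genes such as Gapdh and Pgk1 have processed copies that can share their reads, and the copy Pgk1-rs7 fell by 2.36. Without knock-out replicate 2 the list had 12 lower members, with an adjusted p of 0.0533 for Slc2a1 and 0.0612 for Ldha, and without both libraries that stood apart it had 20.

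Many genes of glycolysis are known targets of hypoxia-inducible factors, which bind the letters ACGTG. These letters, or CACGT on the other strand, were searched from 250 bases before to 50 bases after each start in the RefSeq promoter table (GRCm38.p6). They were found for 16 of 24 glycolysis genes with a promoter (66.7%), against 2744 of 9168 tested genes (29.9%). Among members that fell, Eno1, Eno3, Gpi1, Pfkl, Pfkp and Tpi1 had no match, and the others with a promoter had a match. Among members not called, Hk3, Pfkfb2, Pfkfb3 and Slc16a1 had a match, and Ldhb and Pfkfb4 had none. The part of these letters in the fall was not tested. The windows of Slc16a3 (chr11:120948817-120949116) and Pgk1 (chrX:106186850-106187149), both on the plus strand, are shown. These were the 2 members called lower with the smallest p among those with a match. Each window holds a pair of matches. Capitals mark the matches.
Slc16a3: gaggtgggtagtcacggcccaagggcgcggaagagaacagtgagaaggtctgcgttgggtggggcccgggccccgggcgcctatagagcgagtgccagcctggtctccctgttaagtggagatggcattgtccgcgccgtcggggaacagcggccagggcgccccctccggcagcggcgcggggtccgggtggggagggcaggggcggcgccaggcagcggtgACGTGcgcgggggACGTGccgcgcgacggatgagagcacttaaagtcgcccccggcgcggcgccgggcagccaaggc
Pgk1: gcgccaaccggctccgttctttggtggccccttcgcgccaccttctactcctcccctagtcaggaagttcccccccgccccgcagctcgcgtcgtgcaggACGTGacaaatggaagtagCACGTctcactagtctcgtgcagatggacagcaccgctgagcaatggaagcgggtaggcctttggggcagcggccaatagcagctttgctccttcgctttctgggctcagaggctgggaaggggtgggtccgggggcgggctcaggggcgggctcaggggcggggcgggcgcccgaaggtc

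Hypoxia-inducible genes fell in the same cells, with 13 of 30 tested members lower and 1 higher. Bnip3, whose product on mitochondria marks them for autophagy, was at 29.3, 27.2 and 35.2 CPM in knock-out cells against 93.2, 226 and 192 CPM in wild-type cells (log2 fold change -2.45, SE 0.314, adjusted p = 0.00675). Ankrd37, an ankyrin-repeat gene known as a target of HIF-1, was at 2.68, 3.46 and 4.52 CPM against 16.7, 36.8 and 33.5 CPM (log2 fold change -3.00, SE 0.341, adjusted p = 0.00472). The collagen prolyl hydroxylase gene P4ha1 (-1.18), the lipid droplet gene Hilpda (-1.43), the mitophagy receptor gene Bnip3l (-0.97) and Fam162a (-1.58) fell too. In all 6 the groups were separate, as they were in 34.2% of all tested genes, and wild-type replicate 1 was the lowest wild-type library. Hypoxia-inducible genes called higher and lower numbered 2 and 14 without knock-out replicate 1, 1 and 4 without knock-out replicate 2, 1 and 8 without knock-out replicate 3, 1 and 6 without wild-type replicate 2, 2 and 12 without wild-type replicate 3, and 4 and 17 without both libraries that stood apart.

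No fall was called in the genes of the factors themselves. Hif1a, which encodes HIF-1 alpha, was at 25, 21.5 and 23.2 CPM in knock-out cells and 30.2, 24.6 and 26.7 CPM in wild-type cells (log2 fold change -0.20, SE 0.142, adjusted p = 0.427), with overlapping groups. Epas1, which encodes HIF-2 alpha, was the member that rose, at 6.43, 6.43 and 6.97 CPM against 0.944, 1.09 and 0.952 CPM (log2 fold change 2.75, SE 0.273, adjusted p = 0.00337). The control of pyruvate entry into mitochondria changed at a kinase and at a phosphatase. Pdk1, the kinase that turns pyruvate dehydrogenase off, was at 3.95, 5.98 and 6.83 CPM in knock-out cells against 15.7, 22.1 and 20.5 CPM in wild-type cells (log2 fold change -1.77, SE 0.234, adjusted p = 0.00727), and Pdp2, a phosphatase that turns it on, was at 262, 247 and 229 CPM against 78.6, 101 and 110 CPM (log2 fold change 1.38, SE 0.147, adjusted p = 0.0039). They were the 2 of 13 tested members of pyruvate entry that were called. Pyruvate entry genes called higher and lower numbered 2 and 1 without knock-out replicate 1, 3 and 1 without wild-type replicate 3, and 5 and 1 without both libraries that stood apart.

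Cholesterol synthesis genes were higher in knock-out cells along most of the pathway. Cells build cholesterol from acetyl-CoA, and the factor SREBP2 drives the genes of the pathway together when membranes run low in sterol. Hmgcs1, which condenses acetyl-CoA units into HMG-CoA, was at 848, 905 and 870 CPM in knock-out cells against 250, 393 and 335 CPM in wild-type cells (log2 fold change 1.45, SE 0.161, adjusted p = 0.00442). Idi1, isopentenyl diphosphate isomerase in the middle of the pathway, was at 542, 552 and 543 CPM against 140, 194 and 163 CPM (log2 fold change 1.75, SE 0.128, adjusted p = 0.00166). Cyp51, the lanosterol demethylase of its late part, was at 607, 556 and 532 CPM against 252, 288 and 288 CPM (log2 fold change 1.06, SE 0.109, adjusted p = 0.00357). The knock-out libraries were close to each other and above every wild-type library in all 3.

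Other members that rose were Sqle, for squalene epoxidase (log2 fold change 1.02, adjusted p = 0.00941), Hsd17b7 (1.01), Lss (0.95), Dhcr7 (0.91), Sc5d (0.82), Acat2 (0.81), Fdps (0.71), Msmo1 (0.65), Fdft1 (0.58), Mvk (0.56) and Lbr (0.53). The 7 members without a call had log2 fold changes from -0.20 in Ebp to 0.49 in Mvd. The number higher was 4 without knock-out replicate 2, 9 without wild-type replicate 1 and 18 without both libraries that stood apart; Idi1, Hmgcs1 and Cyp51 passed whichever library was left out. A sterol regulatory element has letters like TCACNCCAC (GTGGNGTGA on the other strand), where N is any base. It was found in the window of 1 of 17 cholesterol genes with a RefSeq promoter (5.9%), against 124 of 9168 tested genes (1.4%). That gene is Hmgcs1, whose window chr13:119690101-119690400, on the plus strand of GRCm38.p6, is shown with the match in capitals.
Hmgcs1: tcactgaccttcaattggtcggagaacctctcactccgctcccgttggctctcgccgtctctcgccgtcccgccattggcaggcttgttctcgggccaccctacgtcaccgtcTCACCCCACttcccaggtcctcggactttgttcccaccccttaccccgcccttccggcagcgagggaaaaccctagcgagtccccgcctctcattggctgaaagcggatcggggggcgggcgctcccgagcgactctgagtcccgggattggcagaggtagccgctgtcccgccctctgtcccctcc

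Genes that sense and export sterols were called in opposite directions. Insig1, a sterol sensor that SREBP itself induces, was at 520, 482 and 389 CPM in knock-out cells against 137, 145 and 215 CPM in wild-type cells (log2 fold change 1.52, SE 0.209, adjusted p = 0.00853). Abcg1, a sterol exporter induced by the oxysterol receptors LXR, was at 38.6, 42.6 and 39 CPM against 99.3, 86.4 and 97 CPM (log2 fold change -1.21, SE 0.105, adjusted p = 0.00235). The knock-out libraries all lay above wild type for Insig1 and below it for Abcg1. Lpcat3 also fell (-0.52, adjusted p = 0.0435), and its call was lost without any of 5 of the 6 libraries, with an adjusted p of up to 0.159. Srebf2, which encodes SREBP2, was at 137, 154 and 145 CPM in knock-out cells and 122, 105 and 134 CPM in wild-type cells and was not called (0.30, adjusted p = 0.147).

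**Figure D3:**
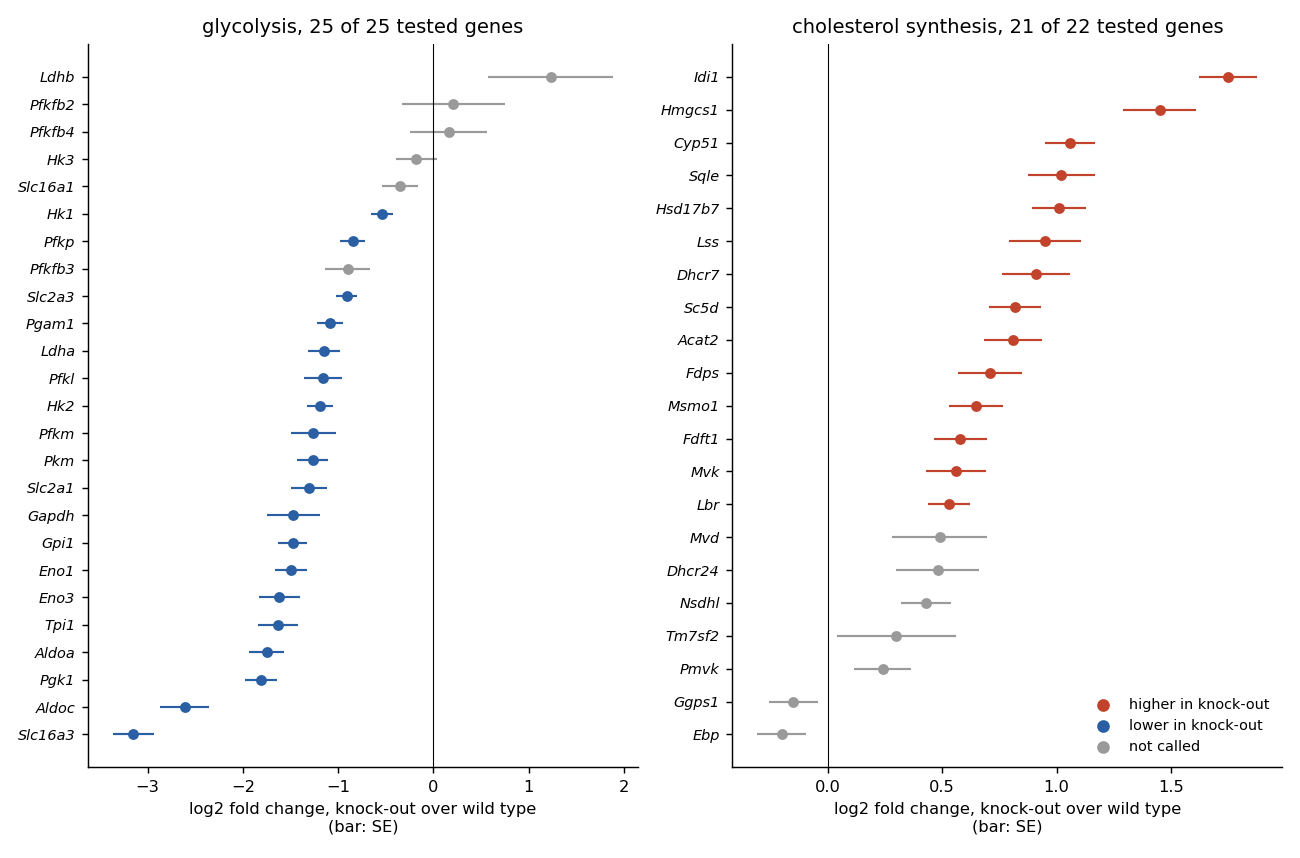
Points are log2 fold changes, knock-out over wild type, of the 25 tested glycolysis genes and 21 of the 22 tested cholesterol synthesis genes, with bars of 1 standard error and colour by call. The glycolysis genes lie mostly left of 0, down to -3.15 in Slc16a3, and the cholesterol genes mostly right of it, up to 1.75 in Idi1.

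Fatty acid genes did not move as a group. Of 19 tested members of fatty acid synthesis, 1 rose and 1 fell. These numbers were 3 and 1 without wild-type replicate 3, 6 and 1 without both libraries that stood apart, and 4 and 1 with the spread of all 18 libraries. Fasn, fatty acid synthase, was at 206, 269 and 278 CPM in knock-out cells against 101, 104 and 112 CPM in wild-type cells (log2 fold change 1.27, SE 0.116, adjusted p = 0.00257). Scd1, the desaturase that makes oleate, was at 6.7, 5.45 and 6.35 CPM against 14.9, 23.6 and 22.8 CPM (log2 fold change -1.70, SE 0.226, adjusted p = 0.00739). Acaca, the carboxylase between acetyl-CoA and Fasn, was not called (0.10, adjusted p = 0.71). In fatty acid oxidation 3 of 20 members fell, Etfb (-1.13), Acaa2 (-0.74) and Eci2 (-0.68), and Acaa2 lost its call without knock-out replicate 2 (adjusted p = 0.0546). Over all tested genes 4.24% were higher and 4.42% lower. Fatty acid oxidation genes called higher and lower numbered 0 and 5 without knock-out replicate 1, 0 and 1 without knock-out replicate 2, 1 and 3 without wild-type replicate 3, 3 and 5 without both libraries that stood apart, and 2 and 4 with the spread of all 18 libraries.

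Other sources of cytosolic acetyl-CoA showed no call: of 15 tested genes of that supply, Acly was the only one past the test in either direction. Supply genes called higher and lower numbered 1 and 1 without wild-type replicate 3, 2 and 2 without both libraries that stood apart, and 0 and 2 with the spread of all 18 libraries. Acss2, which makes acetyl-CoA from acetate, was at 17.7, 16.5 and 8.51 CPM in knock-out cells and 4.81, 5.02 and 15.3 CPM in wild-type cells (log2 fold change 0.78, SE 0.51, adjusted p = 0.376). The groups overlapped through wild-type replicate 3, and without that library Acss2 passed as higher (adjusted p = 0.0323). Slc25a1, the mitochondrial citrate carrier, was at 5.36, 8.33 and 7.84 CPM against 8.07, 11.6 and 8.54 CPM (-0.36, adjusted p = 0.375). Of all tested genes 4.24% were higher and 4.42% lower. In the citric acid cycle 1 of 19 genes rose, Pcx (pyruvate carboxylase, 2.01, adjusted p = 0.0154), and 1 fell, Idh3b (-0.61, adjusted p = 0.0247). Both calls were lost without knock-out replicate 2 or wild-type replicate 1 or 2, with adjusted p of up to 0.0731 and 0.121. Cycle genes called higher and lower numbered 0 and 0 without knock-out replicate 2 or wild-type replicate 1 or 2, 2 and 1 without wild-type replicate 3, 3 and 1 without both libraries that stood apart, and 1 and 2 with the spread of all 18 libraries. Of 35 respiratory chain genes 6 fell and 0 rose, the falls by 0.55 at most (Cox4i1). Respiratory chain genes called higher and lower numbered 0 and 2 without knock-out replicate 1, 0 and 0 without knock-out replicate 2 or 3 or wild-type replicate 1 or 2, 4 and 6 without wild-type replicate 3, and 5 and 9 without both libraries that stood apart.

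Granule genes of primed knock-out cells differed gene by gene. NK cells kill with perforin, which opens the target membrane, and granzymes, serine proteases that pass through it; the mouse genes of granzymes B to G and of mast-cell type chymases share a cluster on chromosome 14. Gzmc (chr14:56231441-56234656) was at 398, 474 and 576 CPM in knock-out cells against 3230, 2920 and 1970 CPM in wild-type cells (log2 fold change -2.46, SE 0.206, adjusted p = 0.00212). Gzmd (chr14:56129556-56132608) was at 3.21, 2.7 and 2.93 CPM against 60.9, 33.6 and 22.8 CPM (log2 fold change -3.70, SE 0.378, adjusted p = 0.00357). Gzme was at 0, 1.42 and 1.83 CPM against 33.4, 19.4 and 11.9 CPM (log2 fold change -4.23, SE 0.805, adjusted p = 0.0221). In all 3 wild-type replicate 1 was the highest library, and wild-type replicate 3, the lowest of wild type, was still above every knock-out library. Gzmf fell too (-3.94, adjusted p = 0.0388). Gzmd, Gzme and Gzmf are close copies whose reads may be split between them, and the call of Gzme was lost without knock-out replicate 2 or 3 or wild-type replicate 1 or 2 (adjusted p of up to 0.0973).

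A gene of the same region went the other way. Cma1, a chymase gene at chr14:55941451-55944675, was at 37.6, 55.1 and 38.2 CPM in knock-out cells against 4.25, 3.27 and 2.86 CPM in wild-type cells (log2 fold change 3.69, SE 0.229, adjusted p = 0.00119). Gzmm, for granzyme M on another chromosome, was at 36.5, 30.7 and 38.7 CPM against 1.84, 1.74 and 0.983 CPM (log2 fold change 4.58, SE 0.267, adjusted p = 0.00119). Gzmk, for granzyme K, was at 20.2, 16.9 and 18.2 CPM against 7.74, 9.98 and 6.72 CPM (log2 fold change 1.21, SE 0.196, adjusted p = 0.0137). Each was higher in every knock-out library than in any wild-type library.

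Of the main killing proteins of primed mouse NK cells, the gene of perforin was called lower and that of granzyme B was not. Prf1, for perforin, was at 1140, 1430 and 1530 CPM in knock-out cells against 2950, 3070 and 2540 CPM in wild-type cells (log2 fold change -1.04, SE 0.123, adjusted p = 0.00541). Gzmb, for granzyme B, was at 7880, 9570 and 11700 CPM against 17600, 16400 and 12900 CPM (log2 fold change -0.66, SE 0.171, adjusted p = 0.0557). The groups of Gzmb did not overlap, but it missed the threshold; it passed without wild-type replicate 3 (adjusted p = 0.0159) and with the spread of all 18 libraries (adjusted p = 0.0382). Gzma, for granzyme A, was at 7380, 10400 and 8790 CPM in knock-out cells and 11700, 11500 and 9190 CPM in wild-type cells, and was not called (-0.26, adjusted p = 0.324). In all, 5 of 28 granule and death ligand genes rose and 8 fell. Serpinb9b (-1.26, adjusted p = 0.0235) and Serpinb6b (-0.71, adjusted p = 0.0132), serpins of the families that restrain granule proteases, were among the falls, and Tnfsf10 (TRAIL; 0.63, adjusted p = 0.0356) and the protease gene Ctsw (0.78, adjusted p = 0.0238) among the rises. Granule and death ligand genes called higher and lower numbered 2 and 3 without knock-out replicate 2 or wild-type replicate 1, 3 and 5 without knock-out replicate 3, 3 and 3 without wild-type replicate 2, 6 and 13 without both libraries that stood apart, and 4 and 13 with the spread of all 18 libraries.

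**Figure D4:**
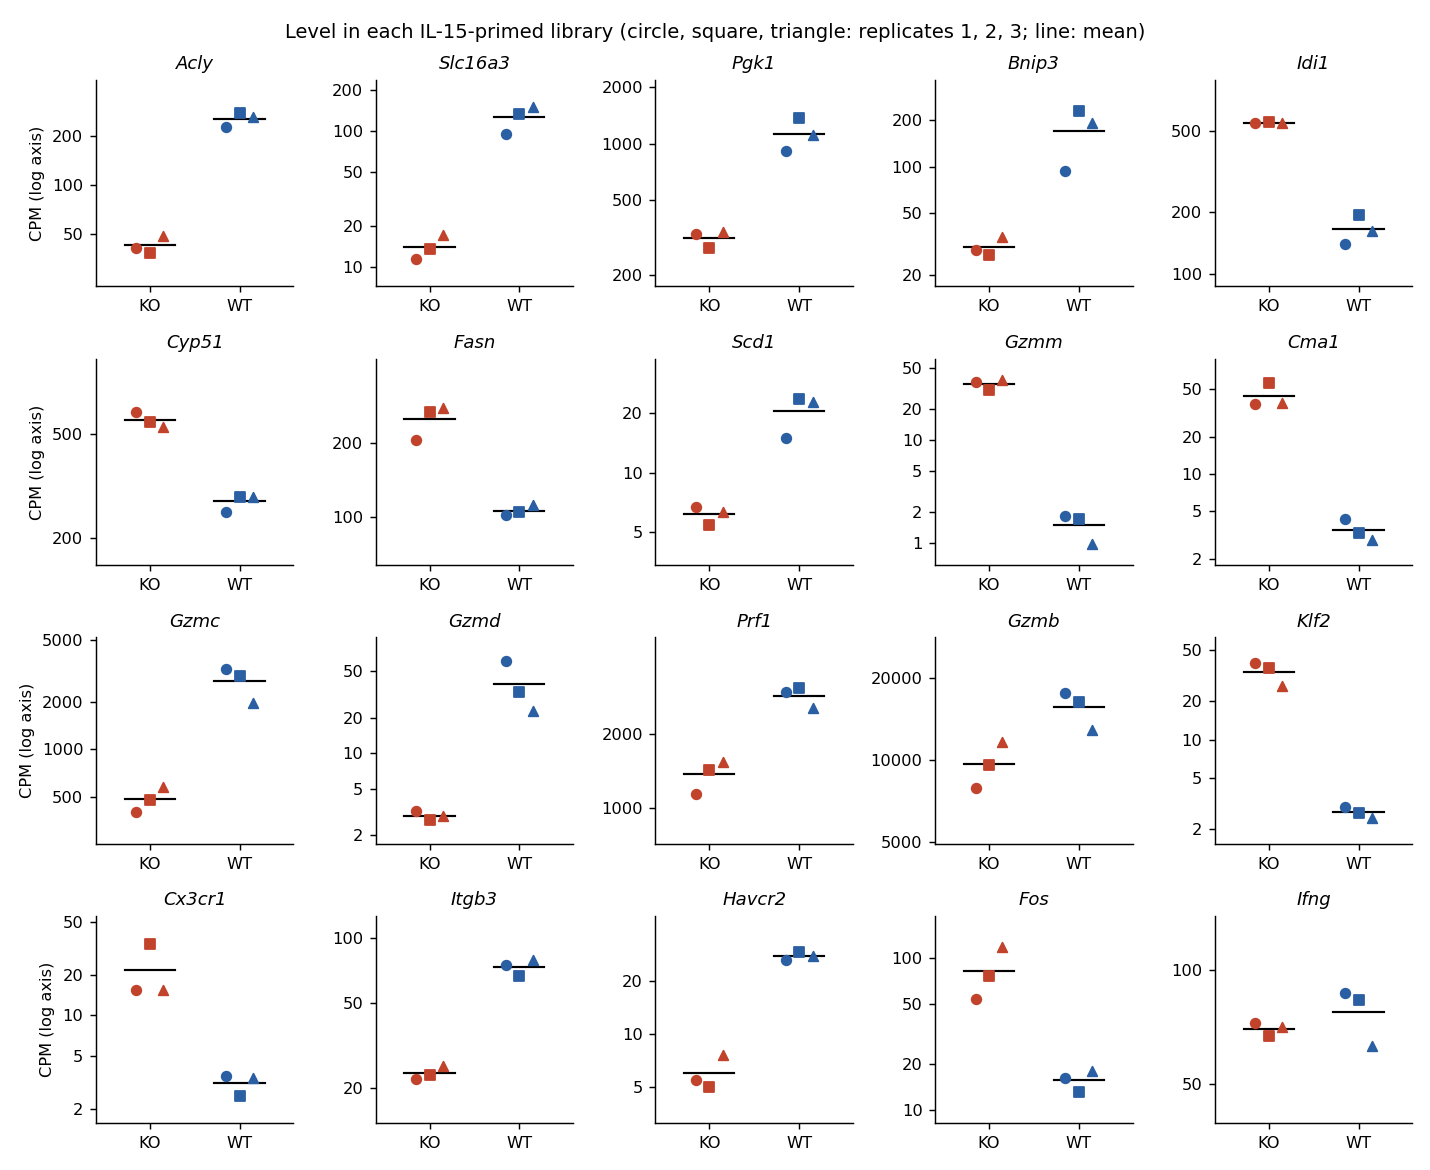
Each panel gives 1 gene, with its level in CPM in the 3 primed knock-out libraries (left) and the 3 primed wild-type libraries (right). The groups overlap only in the panel of Ifng, and over all tested genes 34.2% are separated in this way.

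Some genes by which lymphocytes leave and enter tissues were higher, and others were lower or not called. KLF2 is a transcription factor of resting lymphocytes that drives S1pr1; the receptors S1PR1 and S1PR5 lead cells out along sphingosine-1-phosphate, and CD69 holds them back by removing S1PR1. Klf2 (chr8:72319033-72321656) was at 39.5, 36.4 and 26.3 CPM in knock-out cells against 2.97, 2.67 and 2.43 CPM in wild-type cells (log2 fold change 3.70, SE 0.223, adjusted p = 0.00119). S1pr1 was at 19.8, 7.31 and 9.52 CPM against 0.944, 0.763 and 0.123 CPM (log2 fold change 4.43, SE 0.716, adjusted p = 0.0136). The groups overlapped for neither, and knock-out replicate 1 was the highest library for both.

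Cx3cr1, for the fractalkine receptor, was at 15.5, 34.5 and 15.5 CPM in knock-out cells against 3.54, 2.51 and 3.38 CPM in wild-type cells (log2 fold change 2.81, SE 0.36, adjusted p = 0.00675). S1pr5 (2.27, adjusted p = 0.0189) and the chemokine receptor gene Cxcr4 (2.19, adjusted p = 0.0214) rose too. In all, 6 of 19 members of the list of egress and homing receptors rose, 2 fell and 11 were not called. The shares over all tested genes were 4.24% higher and 4.42% lower in knock-out cells. Cd69 (-0.85, adjusted p = 0.0191) and Rgs1 (-0.60, adjusted p = 0.0262), a brake on chemokine receptors, fell. The call of S1pr1 was lost without wild-type replicate 2 (adjusted p = 0.0627), and those of S1pr5 and Cd69 without knock-out replicate 2 or wild-type replicate 1 or 2 (up to 0.0901 and 0.1). Rgs1 lost its call without any of these or knock-out replicate 3 (up to 0.112). The number higher was 3 without wild-type replicate 2 and 9 without both libraries that stood apart.

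Among transcription factors 6 of 40 tested genes rose and 3 fell, beside 4.24% higher and 4.42% lower over all tested genes. The factors that define NK identity were not called: Eomes was at 82.8, 82.3 and 86.4 CPM in knock-out cells and 62, 71.4 and 71.1 CPM in wild-type cells (log2 fold change 0.32, SE 0.101, adjusted p = 0.0928), and Tbx21, for T-bet, at 17.7, 19.7 and 19.7 CPM and 18.1, 15.8 and 12.3 CPM (log2 fold change 0.34, SE 0.17, adjusted p = 0.258). Tox rose (0.87, adjusted p = 0.0105). Some rises were at low level, such as Zfp683, for Hobit, at 2.08, 3.28 and 1.59 CPM against 0.236, 0 and 0.0307 CPM (adjusted p = 0.0282). Tox2 had 51 reads over the knock-out libraries and 0 over the wild-type libraries, at least 21-fold higher against a floor of 3 reads over the group. Prdm1, for Blimp-1, a factor of effector cells, was at 18.9, 26.4 and 25.9 CPM against 46.8, 41.8 and 38.2 CPM and fell (-0.81, adjusted p = 0.0199), as did Nfil3 (-0.90, adjusted p = 0.0164) and Bhlhe40 (-0.47, adjusted p = 0.0142). These calls depended on single libraries. Transcription factor genes called higher and lower numbered 0 and 0 without knock-out replicate 2, 1 and 0 without knock-out replicate 3 or wild-type replicate 2, 3 and 0 without wild-type replicate 1, 10 and 4 without both libraries that stood apart, and 7 and 5 with the spread of all 18 libraries. Without knock-out replicate 2, Tox had an adjusted p of 0.0533.

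Fos, a subunit of the early activation factor AP-1, was at 53.8, 76.8 and 118 CPM in knock-out cells against 16.4, 13.2 and 18 CPM in wild-type cells (log2 fold change 2.40, SE 0.274, adjusted p = 0.00472). Its knock-out libraries varied more than its wild-type libraries but did not overlap them. The list of early activation genes had no single direction, with 5 of 34 members higher, Fosb, Btg2, Spry2 and Zfp36 besides Fos, and 4 lower, Nr4a3, Ier3, Tnfaip3 and Dusp6. These numbers were 5 and 2 without knock-out replicate 1, 1 and 0 without knock-out replicate 2 or wild-type replicate 2, 2 and 1 without knock-out replicate 3, 3 and 0 without wild-type replicate 1, 10 and 4 without wild-type replicate 3, and 11 and 7 without both libraries that stood apart. Myc, a driver of growth that IL-15 induces, was at 244, 225 and 267 CPM in knock-out cells and 205, 165 and 211 CPM in wild-type cells and was not called (log2 fold change 0.36, SE 0.123, adjusted p = 0.116).

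Activating receptor genes moved both ways. NK cells sense stress ligands through NKG2D, encoded by Klrk1, and antibody through CD16, encoded by Fcgr3, and adaptors such as DAP12, encoded by Tyrobp, pass the signal on. Klrk1 was at 1240, 1380 and 1360 CPM in knock-out cells against 880, 855 and 743 CPM in wild-type cells (log2 fold change 0.71, SE 0.0936, adjusted p = 0.00723). Fcgr3 was at 65, 78.7 and 72.2 CPM against 136, 147 and 139 CPM (log2 fold change -0.94, SE 0.0943, adjusted p = 0.00339). Tyrobp was at 284, 384 and 410 CPM against 765, 751 and 570 CPM (log2 fold change -0.93, SE 0.155, adjusted p = 0.0147). Klrk1 was thus higher, and Fcgr3 and Tyrobp lower, in every knock-out library. Of 31 tested genes, Klrk1, Ncr1 and Syk rose and Fcgr3, Tyrobp and Cd160 fell, beside 4.24% higher and 4.42% lower over all tested genes. Klrk1 lost its call without knock-out replicate 2 (adjusted p = 0.0533), Tyrobp without that library or wild-type replicate 1 or 2 (up to 0.0715), and Ncr1 without knock-out replicate 2 or 3 or wild-type replicate 2 (up to 0.1). Activating receptor and adaptor genes called higher and lower numbered 0 and 1 without knock-out replicate 2, 1 and 2 without knock-out replicate 3, 1 and 1 without wild-type replicate 2, 6 and 6 without both libraries that stood apart, and 4 and 5 with the spread of all 18 libraries. Among lectin-like receptors Klri2 was at 664, 716 and 701 CPM in knock-out cells against 325, 347 and 299 CPM in wild-type cells (log2 fold change 1.13, SE 0.0856, adjusted p = 0.00167), and the Ly49 gene Klra5 at 52.6, 90.2 and 63 CPM against 214, 208 and 155 CPM (log2 fold change -1.46, SE 0.206, adjusted p = 0.00888). Ly49 genes are close copies that may share reads.

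Checkpoint receptor genes were mostly lower where called, 5 of 16 tested members against 1 higher. Havcr2, for the inhibitory receptor TIM-3, was at 5.49, 5.01 and 7.55 CPM in knock-out cells against 26.3, 29 and 27.8 CPM in wild-type cells (log2 fold change -2.18, SE 0.184, adjusted p = 0.00212). Lilrb4a, for an inhibitory immunoglobulin-like receptor, was at 22, 22.6 and 28 CPM against 57.2, 54.2 and 53.2 CPM (log2 fold change -1.16, SE 0.123, adjusted p = 0.0039). Vsir (-1.06), Cd200r1 (-1.33) and Cd96 (-0.60) fell too, and the inhibitory Fc receptor gene Fcgr2b rose (2.65, adjusted p = 0.0191), a call lost without knock-out replicate 2 or 3 or wild-type replicate 1 or 2 (up to 0.0749). The number lower was 3 on leaving out wild-type replicate 1 or 2, and 9 without both libraries that stood apart. In the TNF receptor family 4 of 18 fell and 1 rose. Tnfrsf9, for the co-stimulatory receptor 4-1BB, was at 597, 648 and 790 CPM in knock-out cells against 1690, 2050 and 1520 CPM in wild-type cells (log2 fold change -1.35, SE 0.142, adjusted p = 0.00386). Cd27 (-1.02), Tnfrsf18 (-0.94) and Traf1 (-0.72) fell and Tnfrsf26 (0.73) rose, and 1 member was called lower without knock-out replicate 2 or wild-type replicate 1 or 2.

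Itgb3, for the beta-3 integrin chain, was at 22, 22.9 and 25.2 CPM in knock-out cells against 74.6, 66.1 and 78.8 CPM in wild-type cells (log2 fold change -1.62, SE 0.117, adjusted p = 0.00166). Some genes used as markers of other cells differed as well. Pecam1, an adhesion molecule of endothelium that many leukocytes share, was at 57.6, 66 and 54.8 CPM against 171, 148 and 118 CPM (-1.27, adjusted p = 0.00532), while 6 of the 10 endothelium and stroma markers had no read in any primed library. H2-Ab1, a class II gene, was at 0.536, 2.66 and 1.64 CPM against 11.7, 19 and 17.6 CPM (-3.27, adjusted p = 0.0101), and Cd3g, a T-cell receptor subunit gene, at 7.5, 12 and 11.8 CPM against 42.9, 30.7 and 22.4 CPM (-1.59, adjusted p = 0.0154). All 3 were lower in every knock-out library. Of tested markers 1 of 7 for T cells (Cd3g), 1 of 8 for dendritic cells (H2-Ab1, with Itgax higher) and 2 of 3 for monocytes, macrophages and neutrophils (Cd14 and Cd68) fell, and 8 of the 16 markers of the last had no read in any primed library. The T-cell markers summed to 438 to 589 CPM in knock-out and 485 to 620 CPM in wild-type libraries, the dendritic-cell markers to 254 to 345 and 306 to 443 CPM, and the monocyte, macrophage and neutrophil markers to 109 to 141 and 128 to 166 CPM. The part of such cells in the genotype difference was not tested, and in bulk RNA fewer cells of a type and less RNA per cell cannot be told apart.

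Genes of cytokines and of the IL-15 pathway were called in both directions, and the gene of interferon gamma was not among them. Ifng, for interferon gamma, the main cytokine of NK cells, was at 72.4, 67.1 and 70.8 CPM in knock-out cells and 87, 83.3 and 63 CPM in wild-type cells (log2 fold change -0.12, SE 0.138, adjusted p = 0.632), with overlapping groups. For both lists of this section the background over all tested genes was 4.24% higher and 4.42% lower. Of 22 cytokine and chemokine genes, Ccl1 (-1.28, adjusted p = 0.00681), Ccl9 (-1.38, adjusted p = 0.0154) and Spp1 (-0.79, adjusted p = 0.00887) fell and Osm (1.04, adjusted p = 0.0283) and Lif (1.64, adjusted p = 0.0467) rose. Ccl1 passed whichever library was left out, while Spp1 did not without knock-out replicate 2 (adjusted p = 0.0514), nor Osm and Lif without several libraries (up to 0.125 and 0.169). Lif was not called with the spread of all 18 libraries either (adjusted p = 0.11). Cytokine and chemokine genes called higher and lower numbered 1 and 3 without knock-out replicate 1 or wild-type replicate 1, 0 and 1 without knock-out replicate 2, 0 and 2 without knock-out replicate 3 or wild-type replicate 2, 1 and 4 without wild-type replicate 3, 2 and 5 without both libraries that stood apart, and 1 and 5 with the spread of all 18 libraries. Il2ra, a STAT5 target that encodes the IL-2 receptor alpha chain, was at 28.9, 29.3 and 34.5 CPM in knock-out cells against 52.9, 59 and 48.9 CPM in wild-type cells (log2 fold change -0.77, SE 0.121, adjusted p = 0.0126). Cish, a feedback inhibitor induced by STAT5, was at 35.2, 51.7 and 52.7 CPM against 93.5, 93.7 and 76 CPM (log2 fold change -0.89, SE 0.161, adjusted p = 0.0186). Both were lower in every knock-out library, and both lost their calls without knock-out replicate 2 or wild-type replicate 1 or 2 (up to 0.0761 and 0.0864). Neither was called with the spread of all 18 libraries, at adjusted p of 0.264 for Il2ra and 0.0949 for Cish. Il15 itself was at 10.4, 6.87 and 9.28 CPM against 3.11, 2.67 and 1.93 CPM and rose (1.82, adjusted p = 0.0132), a call lost without wild-type replicate 2 (adjusted p = 0.0622). These and Pik3r1 were the 4 of 25 members called, 1 higher and 3 lower. These numbers were 1 and 0 without knock-out replicate 2 or wild-type replicate 1, 0 and 0 without wild-type replicate 2, 4 and 3 without wild-type replicate 3, 6 and 4 without both libraries that stood apart, and 2 and 2 with the spread of all 18 libraries.

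Cell-cycle genes were more often higher, 7 of 41 against 1 lower. E2f2, a factor of entry into S phase, was at 45.4, 57.1 and 49.5 CPM in knock-out cells against 20.6, 20.9 and 21.5 CPM in wild-type cells (log2 fold change 1.30, SE 0.119, adjusted p = 0.00257). Ccne2, for cyclin E2 of the same step, was at 65.4, 70.6 and 60.5 CPM against 27.8, 33.2 and 29.3 CPM (log2 fold change 1.15, SE 0.122, adjusted p = 0.0039). The replication genes Pcna (0.63), Rrm1 (0.49) and Mcm7 (0.41) rose, with E2f7 (1.01) and Top2a (0.54), and Cdk6 fell (-0.68). The mitotic genes Plk1 (-0.07, adjusted p = 0.702), Aurka (-0.33, adjusted p = 0.174) and Ccnb1 (-0.40, adjusted p = 0.101) were not called. Cell-cycle genes called higher and lower numbered 2 and 0 without knock-out replicate 2 or wild-type replicate 1, 4 and 0 without knock-out replicate 3, 3 and 0 without wild-type replicate 2, 12 and 1 without wild-type replicate 3, and 19 and 2 without both libraries that stood apart.

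Genes of the defence against oxidants included clear rises. Nqo1, a quinone reductase gene known as a target of the factor NRF2, was at 17.7, 18.7 and 21.5 CPM in knock-out cells against 2.78, 3.43 and 3.99 CPM in wild-type cells (log2 fold change 2.52, SE 0.197, adjusted p = 0.00167). Sod2, for the superoxide dismutase of mitochondria, was at 145, 157 and 143 CPM against 48.6, 49.7 and 70 CPM (log2 fold change 1.43, SE 0.16, adjusted p = 0.00465). Sod1 (0.78) and Prdx1 (0.73) also rose, while Gpx4 (-0.45) and Taldo1 (-0.43) fell, so that 6 of 24 members were called. Hmox1, Txnrd1 and Gclm, also known as NRF2 targets, were not called, with log2 fold changes of -0.18 for Hmox1 (adjusted p = 0.808), 0.25 for Txnrd1 (adjusted p = 0.218) and 0.30 for Gclm (adjusted p = 0.719). Nqo1 and Sod2 passed whichever library was left out; Gpx4 and Taldo1 did not without knock-out replicate 2 or wild-type replicate 1 or 2 (up to 0.121 and 0.11), nor Taldo1 without knock-out replicate 3. Antioxidant list genes called higher and lower numbered 2 and 0 without knock-out replicate 2 or wild-type replicate 1, 4 and 1 without knock-out replicate 3, 4 and 0 without wild-type replicate 2, and 7 and 4 without both libraries that stood apart.

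Some genes of the BCL2 family differed, in both directions. Pmaip1, for the death-promoting protein NOXA, was at 21.6, 18.4 and 14.3 CPM in knock-out cells against 6.32, 4.36 and 6.02 CPM in wild-type cells (log2 fold change 1.73, SE 0.241, adjusted p = 0.00884). Bcl2a1b, of the protective A1 genes, was at 26.9, 36.2 and 38.8 CPM against 133, 120 and 98.1 CPM (log2 fold change -1.76, SE 0.161, adjusted p = 0.00257), and Bcl2a1d at 48.9, 39.2 and 31.8 CPM against 131, 126 and 98 CPM (log2 fold change -1.53, SE 0.199, adjusted p = 0.00684). The A1 genes are near-identical and can share reads. In all, 3 of 26 members of the list of survival and apoptosis fell and 1 rose, beside 4.42% lower and 4.24% higher over all tested genes. Bcl2 (0.30, adjusted p = 0.0762) and Mcl1 (-0.02, adjusted p = 0.932) were not called. Survival and apoptosis genes called higher and lower numbered 2 and 3 without wild-type replicate 3, and 4 and 4 without both libraries that stood apart.

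Histone acetylation is a process that cytosolic acetyl-CoA feeds, and 3 of its 38 tested genes rose and 0 fell. This is close to the share called in either direction over all tested genes, 8.66% (4.24% higher and 4.42% lower). The 3 were readers of acetylated lysine: Brd2 (0.64, adjusted p = 0.0124), Brd3 (0.83, adjusted p = 0.0185) and Brd9 (0.62, adjusted p = 0.031). No gene of an enzyme that adds or removes acetyl groups was called. Brd2 lost its call without knock-out replicate 2 or wild-type replicate 1 or 2 (up to 0.0712), and Brd3 without these or knock-out replicate 3 (up to 0.0878). Histone acetylation genes called higher and lower numbered 0 and 0 without knock-out replicate 2 or wild-type replicate 1 or 2, 1 and 0 without knock-out replicate 3, 5 and 0 without wild-type replicate 3, 6 and 3 without both libraries that stood apart, and 4 and 3 with the spread of all 18 libraries.

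The largest changes outside these lists were in genes of varied roles. Tubb3, a beta-tubulin gene known from neurons, had 1091 reads over the knock-out libraries and 1 read over the wild-type libraries, a ratio of 1350 with a 95% counting interval from 242 to 53400. Wdfy1, for an adaptor protein of endosomes, was at 2.61, 7.8 and 7.79 CPM in knock-out cells against 84.2, 150 and 149 CPM in wild-type cells (log2 fold change -4.36, SE 0.425, adjusted p = 0.00336). Both passed whichever of the 6 libraries was left out. The fall of Wdfy1 was not limited to primed cells. By the edgeR fit of all 18 libraries it was also lower in fresh knock-out cells (13.5 against 71.9 CPM, log2 fold change -2.41, adjusted p = 0.00236). After NKG2D its log2 fold change was -2.88 (adjusted p = 1.56e-05). The primed effect differed from the fresh one by -1.96 (adjusted p = 0.00931).

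Whether a genotype difference depended on the condition was tested as a difference of differences, with all 18 libraries in 1 fit. The primed effect differed from that in fresh cells in 1559 of 14864 genes (10.5%) and from that after NKG2D in 528 (3.55%). Slc16a3 was at 4.55 ± 1.13 CPM in fresh knock-out cells and 4.26 ± 1.31 CPM in fresh wild-type cells (SD, n = 3 each), and its primed effect differed from the fresh effect by -3.27 on the log2 scale (adjusted p = 0.000105). For Pgk1 that difference was -2.08 (adjusted p = 1.33e-05) and for Bnip3 -2.32 (adjusted p = 0.000549). Klf2 was at 364 ± 54 CPM in fresh knock-out cells and 273 ± 25.3 CPM in fresh wild-type cells, far above both primed groups, and its effect was larger in primed cells by 3.25 (adjusted p = 2.73e-06). Acly itself had a smaller effect in primed cells, -2.58 against -3.72 in fresh cells (difference 1.14, adjusted p = 0.0131). Cd69, compared in this way after its values were seen, changed direction. It was at 469 ± 67.9 CPM in fresh knock-out and 248 ± 12.1 CPM in fresh wild-type cells (log2 fold change 0.92, adjusted p = 0.017). Its primed effect was -0.87, a difference of -1.8 (adjusted p = 0.00013).

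Against NKG2D-stimulated cells the genes parted. The log2 fold changes of Gzmb were -0.18 in fresh, -0.69 in primed and -2.96 in stimulated cells, and those of Ifng 0.06, -0.15 and -2.06 in the same order. The primed effect differed from the stimulated one by 2.28 in Gzmb (SE 0.306, adjusted p = 0.00072) and by 1.92 in Ifng (SE 0.204, adjusted p = 0.000392), the stimulated cells having the larger fall. Bnip3 after stimulation was at 25.5 ± 2.84 CPM in knock-out and 28.4 ± 6.21 CPM in wild-type cells (SD, n = 3 each; difference of effects -2.33, adjusted p = 0.00111). The effect on Fos was 0.95, 2.38 and -0.51 in fresh, primed and stimulated cells. Klf2 was not shown to differ between primed and stimulated cells (difference 0.16, SE 0.306, adjusted p = 0.839), nor were Prf1 (0.59, adjusted p = 0.259) and Acly (-0.41, adjusted p = 0.452).

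**Figure D5:**
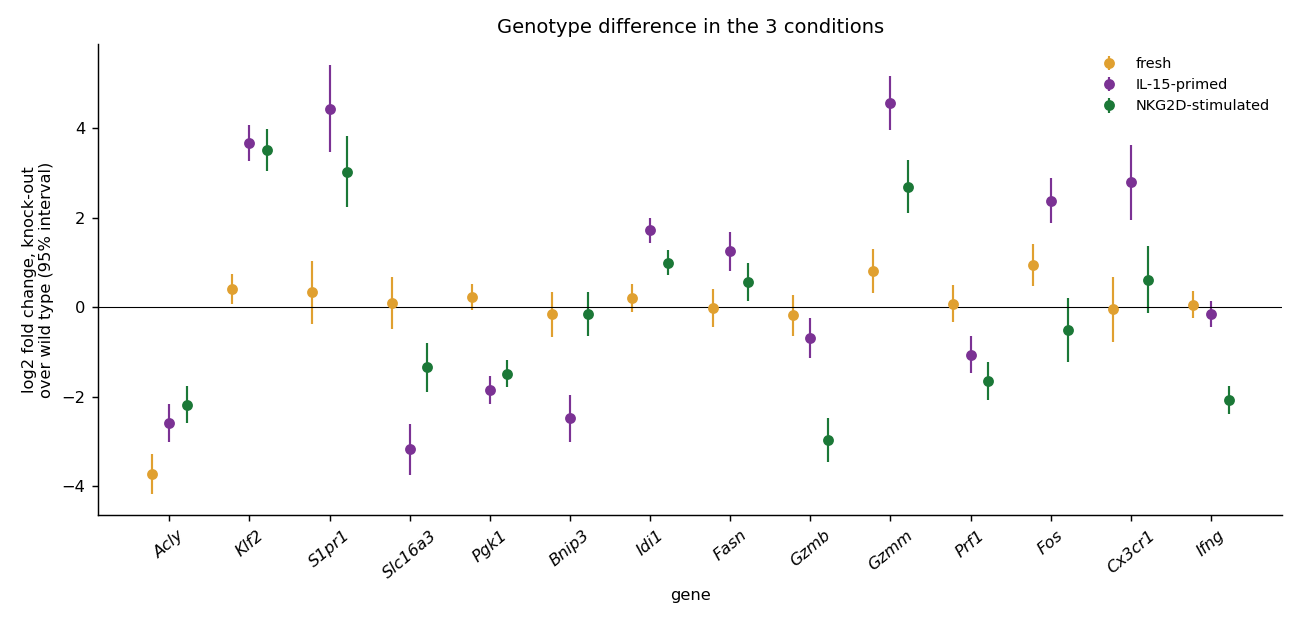
For 14 genes, points give the log2 fold change, knock-out over wild type, in fresh, IL-15-primed and NKG2D-stimulated cells from the 18-library fit, with 95% intervals. Klf2, S1pr1, Slc16a3, Pgk1 and Gzmm lie within 1 of 0 in fresh cells and beyond it in primed cells, and Gzmb and Ifng are lowest after NKG2D, at -2.96 and -2.06.

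Over all genes, each condition was also fitted alone, with 780 of 13300 genes called in fresh cells (5.86%) and 2226 of 13288 after NKG2D (16.8%). Of genes tested in both, 503 were called with the same direction in primed and stimulated cells, 45.6% of the primed and 23.4% of the stimulated calls, and 10 with opposite directions. With fresh cells 17 calls had the same direction, 1.59% of the primed and 2.28% of the fresh calls, and 47 the opposite one. The 3 comparisons share no library.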

How the data were processed

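RNA of sorted NK cells was sequenced after RNeasy extraction and SMARTer library preparation, per the labels. The deposited table holds expected counts per gene, made by the authors from reads on mm10. The tools named in the submitters' processing notes are DRAGEN, bcl2fastq and edgeR; no version, setting, strand use or gene annotation is given in the sources used here. Of the deposited values above 0, 30% are not whole; the plan had assumed counts, so they were rounded. The authors also deposited a comparison table of log2 fold changes with p-values, which serves here as a side-by-side check.

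Genotypes were compared with edgeR 4.0.16 (R 4.3.3), using quasi-likelihood dispersion and TMM factors on the 6 primed libraries, after the edgeR expression filter, with Benjamini-Hochberg adjustment over 13022 genes and a threshold of 0.05. The common biological coefficient of variation was 0.287, against 0.157 in fresh and 0.209 in NKG2D-stimulated libraries, which is why the spread was not shared over all 18 libraries; differences between conditions used 1 fit of all 18. CPM values are scaled over the 18 libraries, SE is that of the log2 fold change, and p-values reflect only the spread among these samples, which may be technical. No molecular barcodes are stated, so the counting interval of the Tubb3 ratio covers counting error only. The intervals drawn for the fit of all 18 libraries are based on its SE and so include the spread among libraries. The scripts were tested on simulated counts. Alternatives were RLE factors, DESeq2 1.42.0, voom of limma 3.58.1 with quality weights, no filter and a stricter one, all 18 libraries, a replicate block, and leaving out libraries.

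The rule for named genes took Acly, then 8 genes that rose and 8 that fell furthest among called genes with separate groups and mean log2 CPM no lower than 3, the 2 risen and 2 fallen list members of smallest p, and a fixed set. Other list members, the marker genes, H2-D1, Fth1, Pgk1-rs7 and the genes of the last section were named after their values were seen, and for them only list counts were recomputed without single libraries. Some genes are not reported here, though list counts include them. The members, lists and rule were chosen with earlier results of these data known. Sequences are from RefSeq (GRCm38.p6), and coordinates of genes are those of the mm10 annotation.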

Additional observations from a re-analysis of the deposited data

Results flagged for a closer look

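For 12 genes the genotype effect in primed cells differed from that in fresh cells by the test of the difference itself, in the edgeR fit of all 18 libraries. On the log2 scale the primed effect minus the fresh effect was 1.14 for Acly (adjusted p = 0.0131), where both effects were falls and the primed one the smaller. It was 3.25 for Klf2, 4.09 for S1pr1, 3.75 for Gzmm, 2.83 for Cx3cr1, 1.52 for Idi1, 1.43 for Fos and 1.26 for Fasn. It was -3.27 for Slc16a3, -2.32 for Bnip3, -2.08 for Pgk1 and -1.14 for Prf1. Adjusted p ranged up to 0.0131.

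For 8 genes the primed effect differed from that after NKG2D. The difference was 2.89 for Fos, 2.28 for Gzmb, 1.92 for Ifng, 1.87 for Gzmm and -2.33 for Bnip3. It was -1.83 for Slc16a3 (adjusted p = 0.00952). For Cx3cr1 it was 2.17 (adjusted p = 0.0297), lost without knock-out replicate 2 or any wild-type replicate (up to 0.0775). For Idi1 it was 0.73 (adjusted p = 0.0361), lost without any of knock-out replicates 1, 2 and 3 and wild-type replicates 1 and 3 (up to 0.108).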

How the results depend on the processing

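The number of called genes, 1128 (552 higher and 576 lower in knock-out cells), moved with the test and the libraries more than with the scaling. It was 1837 (886 and 951) by DESeq2, 3470 (1776 and 1694) by limma voom, 2307 (1040 and 1267) with the spread of all 18 libraries, and 3428 (1892 and 1536) without knock-out replicate 1 and wild-type replicate 3. DESeq2, voom and the last setting each kept all 1128 calls. RLE factors gave 1117, no filter 1340 and a stricter filter 1276. Leaving out 1 library gave 208 to 1648 genes, 99 to 964 higher and 109 to 684 lower, 12 to 19 glycolysis genes lower and 4 to 16 cholesterol genes higher; without both of the libraries above these last numbers were 20 and 18. The primed effect differed from the fresh one in 1559 genes, or 4157 by voom and 842 to 2453 without 1 library, and from the NKG2D one in 528, or 2114 by voom, 887 without a filter and 307 to 541 without 1 library. Of the 28 differences of single genes, that of Klf2 between primed and NKG2D-stimulated cells turned sign under voom, at -0.25 (adjusted p = 0.791), uncalled in both. S1pr1, Fasn and Prf1 passed in that comparison without a filter, and Fasn and Prf1 also under voom. DESeq2 was not run for differences of effects. The cause of these shifts was not tested.

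The labels do not say whether the replicate numbers pair the libraries, and correlations of deviations from means of 3 libraries cannot decide it. Deviations from the group means correlated at -0.27, 0.01 and -0.44 between primed knock-out and wild-type libraries of number 1, 2 and 3. Over all 6 groups the 45 pairs of equal number correlated at -0.46 to 0.64 (median -0.02, 11 pairs over 0.1), 4 of 18 libraries correlated best with their own number, and the labels give no shared litter or day. With the replicate block 176 genes were called (80 higher and 96 lower), all among the 1128 and 15.6% of them. It left 13 glycolysis genes lower and 5 cholesterol genes higher. Of the named gene results, 56 were weaker with the block and 52 the same. The primed effect then differed from the fresh one in 1331 genes and from the NKG2D one in 406, and of the differences of single genes that of Idi1 between primed and NKG2D-stimulated cells was lost (adjusted p = 0.0616). Depth limits the precision of low counts, and knock-out replicate 1 was the shallowest library.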

Other observations

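Some of the smallest p-values belonged to genes outside the lists, named here after their values were seen. Hmgn2, for a nucleosome-binding protein, was at 2239, 2360.3 and 2235 CPM in knock-out cells against 811, 927 and 864 CPM in wild-type cells (log2 fold change 1.42, SE 0.0936, adjusted p = 0.00138 by edgeR). Sgk1, a kinase gene known to respond to glucocorticoids and salt, was at 134, 116 and 135 CPM against 26.9, 36.8 and 34.1 CPM (log2 fold change 2.01, SE 0.149, adjusted p = 0.00166), and Cnnm4, for a magnesium transporter, at 124, 145 and 158 CPM against 43.5, 49.5 and 49.5 CPM (log2 fold change 1.61, SE 0.111, adjusted p = 0.00138). Their knock-out libraries all lay above wild type. Mif, for macrophage migration inhibitory factor, went the other way, at 158, 174 and 238 CPM against 597, 788 and 663 CPM (log2 fold change -1.82, SE 0.167, adjusted p = 0.00257), as did Cd38, for an enzyme that consumes NAD (-1.36, adjusted p = 0.00257), and the peroxiredoxin gene Prdx5 (-1.11, adjusted p = 0.00167).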
